A study of Rattus norvegicus with 6 samples.

Results

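The genes examined here encode 4 families of enzymes that modify and clear foreign and reactive compounds: cytochromes P450 (Cyp), glutathione transferases (Gst, with the membrane-bound Mgst), aldehyde dehydrogenases (Aldh) and UDP-glucuronosyltransferases (Ugt). Members were chosen by gene symbol: probe sets with a single symbol that begins with one of these family names, leaving out Cyp51 and Aldh1l2. This gave 118 probe sets for 105 of the 14217 genes named on the array, of which 57 were Cyp, 23 Gst or Mgst, 16 Aldh and 9 Ugt. A further 11 probe sets carried a member's symbol together with others and were not used, and the Ugt1 genes were among those without a probe set of their own. Where a gene had several probe sets, the one of highest mean log2(intensity + 16) stood for it.

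Embryonic stem (ES) cells of Sprague-Dawley rats were compared with flat pluripotent stem (fPS) cells of the same strain, with 3 arrays in each group and 1 array per sample. The labels give both groups the same medium, with LIF, the GSK3 inhibitor CHIR99021 and the MEK inhibitor PD0325901, and the same maintenance on mouse embryonic fibroblasts treated with mitomycin C, in serum. The description field calls the fPS samples embryonic stem cells as well, so the groups rest on the titles and cell types. Nothing in the labels says that the samples of a group are separate cultures or lines, and p-values then reflect nothing beyond the scatter among these samples, which may be technical. These are bulk samples, in which fewer cells of a type and less RNA per cell cannot be told apart.

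Detoxification is commonly described in phases. Cytochromes P450 insert oxygen into a substrate with electrons from P450 reductase, and aldehyde dehydrogenases oxidise aldehydes to acids, among them retinal to retinoic acid, which Cyp26 enzymes then degrade. Glutathione transferases and UDP-glucuronosyltransferases couple the products to glutathione or glucuronic acid for export. Much of the inducible part is controlled by the aryl hydrocarbon receptor (Ahr) and by NRF2 (Nfe2l2), which binds antioxidant response elements together with small Maf proteins, at sites that Bach1 can occupy as a repressor. Most of these enzymes are best known from liver, and aldehyde dehydrogenase activity is widely used as a marker of stem and progenitor cells.

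On the deposited intensity scale the families lay at different depths. Of the 105 members, 58 were under the median of all probe sets on each of the 6 arrays (55.2%, against 26.5% of all genes), among them 38 of 57 Cyp and 8 of 9 Ugt genes, but 9 of 23 Gst and 3 of 16 Aldh genes. No detection calls were at hand, and array medians ran from 36.2 to 45.3. Signals in that range are therefore given as values and not as evidence of expression. The signal of one probe set does not rank the amount of its transcript against that of another. Differences between the groups are given as a log2 change, the mean of log2(intensity + 16) in fPS minus that in ES cells, which understates the change of dim genes. They were tested with limma over all 31042 probe sets with Benjamini-Hochberg adjustment.

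Of the 105 members, 2 passed the adjusted threshold of 0.05, Gstm1 higher and Cyp2u1 lower in fPS cells, where 0.858% of all genes passed (0.57% higher and 0.288% lower). At an unadjusted limma p under 0.05 there were 11 higher and 7 lower, 17.1% of the members, where 17.5% of all genes came under it (8.59% higher and 8.88% lower). In 23 members (21.9%) the arrays of the groups did not overlap, against 22.6% of all genes, with 13 higher and 10 lower where all genes gave 11.3% each way. The median log2 change was 0.062 over the members and -4.59e-05 over all genes. By family it was -0.016 for Cyp, 0.17 for Gst with Mgst, 0.030 for Aldh and 0.22 for Ugt. The Gst median was -0.0045 without ES replicate 1 and 0.55 with a pseudocount of 1, the Ugt median was 0.63 with that pseudocount, and the Cyp median was -0.14 without fPS replicate 1. Groups did not overlap in 34.8% of Gst, 43.8% of Aldh, 14% of Cyp and 0 of 9 Ugt genes, shares that were not tested against each other. Of the 11 members with several probe sets, 4 had another one of opposite sign. Neither Gstm1 nor Cyp2u1 was among these 11.

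**Figure D1:**
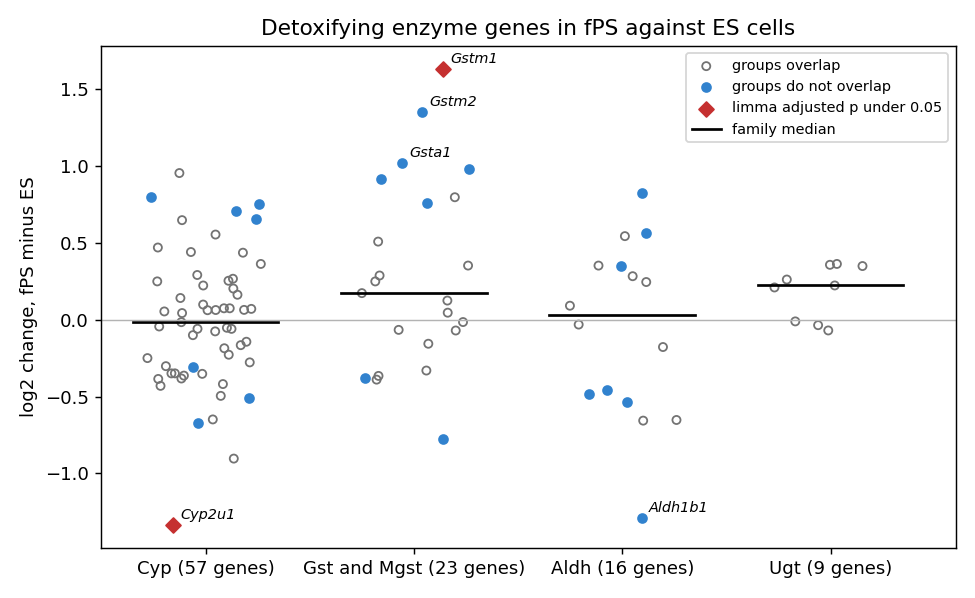
Log2 change of each member (fPS minus ES, on log2(intensity + 16)) by family, 1 point per gene, with the family median as a bar. Most points lie within 1 of zero; Gstm1 at 1.63 and Cyp2u1 at -1.34 passed the limma test, and Gstm2, Gsta1 and Aldh1b1 are the other members beyond 1.

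Among the glutathione transferases, the mu class held the member with the largest change. Gstm1, a mu-class enzyme on chromosome 2, had intensities of 7.97, 22.9 and 17 in ES and 75.9, 75.0 and 94.0 in fPS cells. The groups were wide apart, with no overlap, and the means were 16 ± 7.52 and 81.6 ± 10.7 (SD, n = 3). All ES values lay under 36.2, the lowest of the array medians. Gstm1 rose by a log2 change of 1.63 (SE 0.240, limma adjusted p = 0.0354). Gstm2, its close relative, stood at 38.5, 70.3 and 80.7 in ES and at 174, 156 and 217 in fPS cells. Its groups did not overlap either, and its log2 change was 1.35 (SE 0.268), but it did not pass (limma adjusted p = 0.0596). It passed with the dimmest 30% of probe sets removed and with eBayes set to trend and robust (adjusted p = 0.0240 and 0.0286, with 0.0240 to 0.221 across settings). In the other 14 of 16 alternatives Gstm2 did not pass. The call for Gstm1 was lost whichever single array was left out: limma adjusted p became 0.142, 0.0692 or 0.104 when ES replicate 1, 2 or 3 was dropped and 0.0561, 0.179 or 0.0979 when fPS replicate 1, 2 or 3 was, with log2 changes from 1.44 to 1.79. It was also lost with pseudocounts of 1 and 64 (log2 changes 2.39 and 0.87, adjusted p = 0.140 and 0.0533; across settings, 0.00900 to 0.181).

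In the RefSeq annotation of the rat assembly GRCr8, the 9 mu-class genes lie in 1 row on chromosome 2 with 2 genes of long non-coding RNA among them, and 7 of the 9 were measured. In the order along the chromosome these were Gstm5, Gstm6l, Gstm7, Gstm3, Gstm2, Gstm1 and Gstm4, with log2 changes of 0.80, 0.25, 0.35, -0.015, 1.35, 1.63 and 0.29. Gstm2 and Gstm1 are direct neighbours, and they were the only mu-class genes measured whose groups did not overlap. They make up 28.6% of the 7, against 22.6% of all genes. Gstm5 came next, with 22.9, 4.99 and 26.2 in ES and 36.2, 22.0 and 75.1 in fPS cells, and Gstm4, beside Gstm1 on the other side, overlapped. Mu-class genes are similar in sequence, so probes of one may also take up transcripts of another, which was not tested.

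The promoters of Gstm1, Gstm2, Cyp2u1 and Aldh1b1, among the members with the largest changes, are shown with that of Gstp1, the glutathione transferase of highest signal, so that their letters can be set beside known control elements of detoxification genes. Each is the run of 250 bases before the gene's start, 5′ to 3′ on the gene's strand, from RefSeq on GRCr8. Capitals mark matches on either strand to the antioxidant response element core TGACNNNGC, the AP-1 site TGANTCA, which can overlap it, and the xenobiotic response element core GCGTG, which the aryl hydrocarbon receptor binds. The positions are chr2:198343384-198343633 (minus strand) for Gstm1, chr2:198316918-198317167 (minus) for Gstm2, chr1:210769706-210769955 (minus) for Gstp1, chr2:222540990-222541239 (minus) for Cyp2u1 and chr5:64858750-64858999 (plus) for Aldh1b1.
Gstm1 promoter: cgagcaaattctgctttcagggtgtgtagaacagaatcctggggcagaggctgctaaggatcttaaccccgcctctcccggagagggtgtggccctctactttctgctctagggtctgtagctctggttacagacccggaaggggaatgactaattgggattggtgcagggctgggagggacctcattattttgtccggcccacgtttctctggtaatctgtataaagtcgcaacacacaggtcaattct
Gstm2 promoter: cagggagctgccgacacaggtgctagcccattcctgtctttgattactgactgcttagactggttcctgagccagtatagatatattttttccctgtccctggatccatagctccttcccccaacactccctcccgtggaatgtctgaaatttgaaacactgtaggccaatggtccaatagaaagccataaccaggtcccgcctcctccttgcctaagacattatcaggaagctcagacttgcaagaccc
Gstp1 promoter: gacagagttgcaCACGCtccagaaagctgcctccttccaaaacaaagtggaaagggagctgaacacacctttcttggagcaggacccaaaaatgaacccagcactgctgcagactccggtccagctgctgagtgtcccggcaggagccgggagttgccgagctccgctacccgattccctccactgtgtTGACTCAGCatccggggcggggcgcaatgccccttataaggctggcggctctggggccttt
Cyp2u1 promoter: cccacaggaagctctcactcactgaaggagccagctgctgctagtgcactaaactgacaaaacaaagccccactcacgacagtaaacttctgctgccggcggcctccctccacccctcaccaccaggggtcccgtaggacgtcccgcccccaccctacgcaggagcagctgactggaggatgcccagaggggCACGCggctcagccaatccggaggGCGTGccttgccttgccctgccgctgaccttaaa
Aldh1b1 promoter: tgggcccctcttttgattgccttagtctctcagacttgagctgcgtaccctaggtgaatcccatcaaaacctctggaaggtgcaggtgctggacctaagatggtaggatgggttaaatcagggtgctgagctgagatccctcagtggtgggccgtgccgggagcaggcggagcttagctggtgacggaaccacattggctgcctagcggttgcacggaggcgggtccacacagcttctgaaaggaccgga

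In this window Gstp1 held TGACTCAGC, from 61 to 53 bases before the start, which matches both the antioxidant response element core and, in its first bases, the AP-1 site. It also held 1 match to GCGTG on the opposite strand, 238 to 234 bases before the start. Cyp2u1 held GCGTG on both strands, at 58 to 54 and at 34 to 30 bases before the start. The windows of Gstm1, Gstm2 and Aldh1b1 held none of the 3 motifs. Promoter sequences were found for 85 of the 105 members, 88 windows in all. Of these, 12.5% held TGACNNNGC, 6.82% TGANTCA and 28.4% GCGTG, against 10.1%, 6.34% and 25.9% of all 33469 windows of the same length. The members' shares thus lay near those of promoters in general.

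Gstp1, the pi-class enzyme, gave the brightest signal of the members. It had 1838, 3298 and 1492 in ES and 4579, 4315 and 3570 in fPS cells. All fPS arrays were above all ES arrays, although ES replicate 2 came near to fPS replicate 3. The log2 change was 0.98 (SE 0.305, 95% interval 0.29 to 1.68) and did not pass (limma adjusted p = 0.174). Its relative Gstp3 was at or under 8.05 on every array.

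The alpha class had 2 positive and 2 negative log2 changes, and 0 of its 4 genes passed. Gsta1 and Gsta3, on chromosome 9, were dim and higher in fPS cells. Gsta1 had 1.39, 5.74 and 1.19 against 37.2, 9.57 and 24, and Gsta3 had 12.3, 11.9 and 5.07 against 26.3, 33.7 and 22.2. In both genes the groups did not overlap, and neither gene passed (log2 changes 1.02 and 0.76, limma adjusted p = 0.144 and 0.155). Gsta4, which conjugates the lipid peroxidation product hydroxynonenal, had 1155, 786 and 873 against 673, 617 and 834. These arrays overlapped, with a log2 change of -0.39 (SE 0.233). Gsta3l1 also overlapped, at 561, 430 and 274 against 419, 319 and 223.

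Among the other classes, Gstk1, the kappa-class enzyme of mitochondria and peroxisomes, had 240, 190 and 157 in ES and 124, 133 and 71.1 in fPS cells. All fPS arrays were below all ES arrays, and the log2 change of -0.78 (SE 0.273) did not pass (limma adjusted p = 0.22). Gstz1, the zeta-class isomerase of tyrosine breakdown, lay lower in the same way, at 73.2, 52.0 and 56.5 against 40.4, 42.2 and 44.6, with a log2 change of -0.38. Gsto1 of the omega class, at 354, 289 and 274 against 331, 292 and 204, overlapped, and so did Gsto2 and the theta-class Gstt1, Gstt2 and Gstt3.

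The membrane-bound enzymes had unlike log2 changes, none of which passed and which were not tested against each other. Mgst3 had 594, 706 and 568 against 604, 556 and 611, with a log2 change of -0.07 and a 95% interval from -0.52 to 0.38, which leaves room for a shift of up to about that size either way. Mgst2 was dimmer, at 13.0, 21.2 and 14.1 against 45.9, 61.5 and 29.6. Its groups did not overlap, and its log2 change of 0.92 (SE 0.251) did not pass (limma adjusted p = 0.132). Mgst1 had 31.5, 52.8 and 95.5 against 77.2, 83.6 and 97.2, and overlapped at the level of ES replicate 3.

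**Figure D2:**
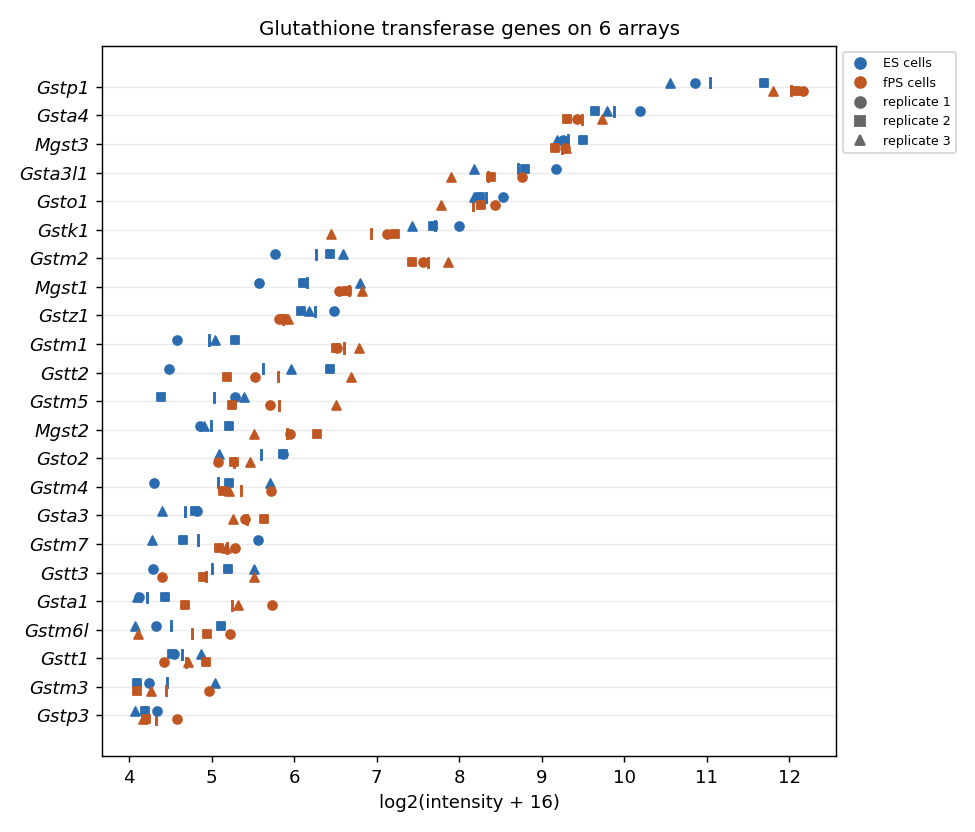
Level of each Gst and Mgst gene on the 6 arrays, as log2(intensity + 16), ordered by signal, with points for arrays (shape gives the replicate number) and bars for group means. Gstm1, Gstm2, Mgst2, Gsta3, Gsta1 and Gstp1 have all fPS arrays above all ES arrays, and Gstk1 and Gstz1 have them below.

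Of the 16 aldehyde dehydrogenases, 0 passed the limma test, and 2 higher and 2 lower had an unadjusted p under 0.05, a level that 17.5% of all genes reached. Aldh1b1, a mitochondrial enzyme that oxidises acetaldehyde and retinal, had the largest change of the family. It had 307, 205 and 185 in ES and 93.4, 73.0 and 85.1 in fPS cells. The lowest ES array was far above the highest fPS array, and the means were 232 ± 65.5 and 83.8 ± 10.3. The log2 change was -1.29 (SE 0.241, 95% interval -1.84 to -0.74), just outside the threshold (limma adjusted p = 0.0550). It passed with centred arrays, without the dimmest 30% of probe sets, with the trend and robust settings and with the mean over probe sets (adjusted p = 0.0361, 0.0230, 0.0265 and 0.0461), with 0.0230 to 0.246 across settings. The gene has 1 probe set, and of these settings only centring moved its log2 change, to -1.35. In the other 12 of 16 alternatives it did not pass. Among them was leaving out any single array (limma adjusted p from 0.0802 to 0.246).

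Aldh2, the main mitochondrial enzyme of acetaldehyde clearance, was at 167, 179 and 425 in ES and 361, 344 and 343 in fPS cells. Here the fPS arrays were alike, while ES replicate 3 lay above all of them, and the log2 change was 0.54 (SE 0.334). ES replicate 3 was also the highest array for Aldh9a1, which makes the carnitine precursor, at 269, 330 and 701 against 423, 429 and 635. The same held for Aldh4a1, of proline breakdown, at 263, 235 and 468 against 357, 298 and 465. For Aldh2, Aldh9a1 and Aldh4a1 leaving this array out moved the log2 change from 0.54, 0.28 and 0.25 to 0.95, 0.68 and 0.54, none of which passed.

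Among genes with a mean intensity of 100 or more, negative log2 changes were the more frequent: 12 of 17 members, with a median of -0.39, and 4130 of 6873 genes at large, with a median of -0.10. Aldh7a1, of lysine breakdown, had 659, 574 and 850 against 557, 401 and 542, and Aldh18a1, which starts proline synthesis, had 210, 235 and 382 against 187, 162 and 190. In both the groups did not overlap, with log2 changes of -0.46 and -0.53 (limma adjusted p = 0.416 and 0.370). Without ES replicate 3 these were -0.30 and -0.29. Aldh16a1 likewise did not overlap, at 157, 176 and 143 against 123, 88.0 and 120. Aldh6a1, of valine breakdown, overlapped at 244, 249 and 433 against 125, 162 and 299, with a log2 change of -0.66 (SE 0.346) that was -0.40 without ES replicate 3. So did Aldh3a2, the fatty aldehyde dehydrogenase, at 316, 312 and 501 against 318, 188 and 197, with -0.65 (SE 0.283).

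The retinal dehydrogenases, which make retinoic acid, had low signal. Aldh1a1 had 48.7, 49.4 and 74.1 against 83.4, 34.8 and 54.8, a log2 change of -0.03 with a 95% interval from -0.68 to 0.62. Aldh1a2 and Aldh1a3 were at or under 34 on every array, with log2 changes of 0.35 each. Higher and dim in fPS cells was Aldh1l1, an enzyme of the folate cycle, at 20.7, 20.4 and 22.8 against 42.3, 54.7 and 53.8. Its log2 change of 0.82 (SE 0.197) did not pass (limma adjusted p = 0.0938), nor did that of Aldh3b1, at 46, 67.2 and 40.2 against 77.1, 89.3 and 79.1.

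**Figure D3:**
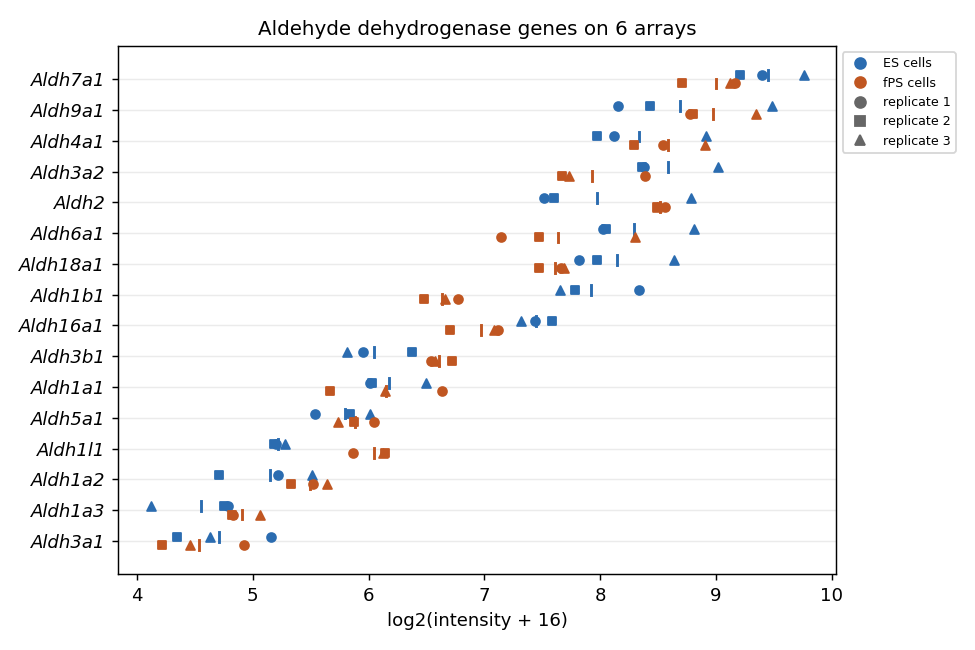
Level of each Aldh gene on the 6 arrays, as log2(intensity + 16), with points for arrays and bars for group means. Aldh1b1 has the widest gap, with ES arrays at 185 or more and fPS arrays at 93.4 or less in intensity; ES replicate 3 is the highest array for Aldh2, Aldh9a1 and Aldh4a1.

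Of the 57 cytochromes P450, 0 passed higher and 1 lower, where 0.57% and 0.288% of all genes did. At an unadjusted limma p under 0.05 there were 3 higher and 4 lower, against 8.59% and 8.88% of all genes. Cyp2u1, a P450 of long-chain fatty acids found in brain and thymus, had 54.4, 51.6 and 53.4 in ES and 10.1, 6.78 and 18.5 in fPS cells, from a gene on chromosome 2. The ES arrays were nearly equal and all fPS arrays lay far below them, under the medians of their arrays. It fell by 1.34 on the log2 scale (SE 0.222, limma adjusted p = 0.0423). The call was lost whichever array was left out, with adjusted p of 0.163, 0.105 or 0.109 when ES replicate 1, 2 or 3 was dropped and 0.0742, 0.214 or 0.0897 when fPS replicate 1, 2 or 3 was, and with pseudocounts of 1 and 64 (log2 changes -2.18 and -0.63, adjusted p = 0.142 and 0.0560; across settings, 0.0161 to 0.214).

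The P450 families known for drug metabolism, Cyp1 to Cyp3, gave little signal. Of their 32 genes, 23 were under the median of all probe sets on all 6 arrays and the brightest had a mean of 55.4. Cyp1a1, the classical target of the aryl hydrocarbon receptor, had 5.34, 1.16 and 0.675 against 1.85, 1.57 and 1.22. Cyp1b1 had 39.7, 28.1 and 14.8 against 41.2, 29.7 and 28.2, which overlapped. Cyp3a2, a major liver P450, was at or under 2.94 on every array. Besides Cyp2u1, the groups did not overlap in Cyp2a1, Cyp2d2 and Cyp2g1, all dim and higher in fPS cells, and none of them passed (log2 changes 0.76, 0.80 and 0.66, limma adjusted p = 0.157, 0.161 and 0.356). With Cyp2u1 they make up 12.5% of the 32 genes, against 22.6% of all genes. Cyp2s1, known from epithelia, had 95.9, 49.2 and 81.7 against 60.4, 29.7 and 15.1, with overlap and a log2 change of -0.90 (SE 0.353).

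Of the 10 Cyp4 genes, whose enzymes hydroxylate fatty acids and eicosanoids, 0 passed. Only 1 had an unadjusted limma p under 0.05, a level that 17.5% of all genes reached. Cyp4f6 had 83.3, 77.6 and 60.9 against 44.9, 48.6 and 46.8. Its groups did not overlap, and its log2 change was -0.51 (SE 0.202, limma adjusted p = 0.271). Cyp4v3, of fatty acid oxidation in the eye and elsewhere, had 14.8, 64 and 83.4 against 98.2, 167 and 69.5. It varied within both groups, with a log2 change of 0.96 and a 95% interval from -0.07 to 1.99. It was 0.44 without ES replicate 1, and its other probe set had 0.30.

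The 12 P450 genes of sterols, steroids, bile acids and vitamin D had a median log2 change of -0.13, and 0 passed. 10 of them were under the median of all probe sets on all 6 arrays. Cyp7a1, the rate-limiting enzyme of bile acid synthesis, had 5.28, 28.5 and 21 against 3.91, 5.62 and 17.3, and Cyp19a1, the aromatase, had 14.5, 31.8 and 14.1 against 21.9, 13.6 and 17.4. The sterol 27-hydroxylase Cyp27a1 was the only one of the 12 without overlap, at 18.0, 25.0 and 17.8 against 3.88, 2.35 and 16.2, and at these levels its log2 change of -0.67 rests on signals under the array medians. Both retinoic acid hydroxylases were dim. Cyp26a1 had 10.4, 30.3 and 11.8 against 35.4, 19.8 and 17.8, and Cyp26b1 had 19.8, 24.7 and 15.2 against 65.5, 28.9 and 38.5. Cyp26b1 did not overlap on this probe set (log2 change 0.71, limma adjusted p = 0.244), whereas its other probe set had 0.19. The only P450 with a mean of 100 or more was Cyp20a1, a conserved P450 without a settled substrate. It had 321, 332 and 527 against 332, 279 and 145, with a log2 change of -0.65 (SE 0.331), and moved to -0.32 without fPS replicate 3 (limma adjusted p = 0.697; across settings, 0.277 to 0.873).

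**Figure D4:**
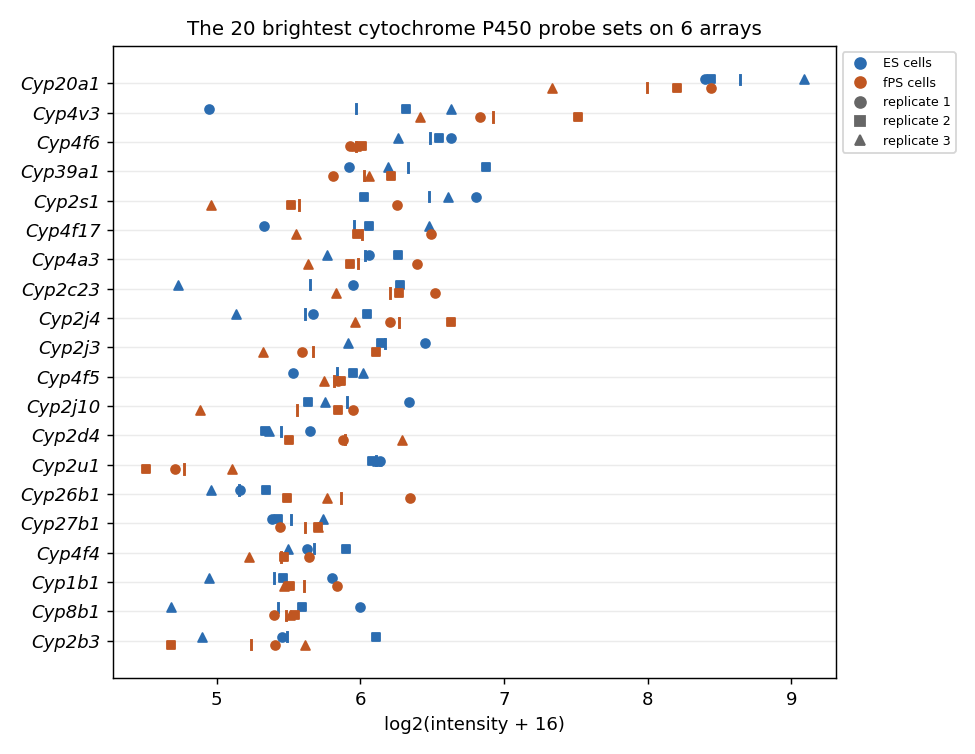
Level of the 20 brightest Cyp genes on the 6 arrays, as log2(intensity + 16), with points for arrays and bars for group means. Cyp20a1 stands alone at the bright end, and Cyp2u1 and Cyp4f6 show all ES arrays above all fPS arrays.

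Of the 9 UDP-glucuronosyltransferases measured, 0 had a mean intensity of 100 or more. None passed the limma test, 0 had an unadjusted p under 0.05, and none had groups without overlap. The brightest was Ugt8, which makes galactosylceramide of myelin and is not chiefly a detoxifying enzyme, at 23.2, 30.3 and 42.5 against 55.3, 22.9 and 43.2. Ugt2a1 had 19, 21 and 2.03 against 27.5, 17.7 and 17.8, and Ugt2b35 had 3.13, 20.1 and 3.23 against 22.6, 8.78 and 12.7. All 8 Ugt2 genes were under the median of all probe sets on all arrays.

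The partners of these enzymes were given by a list of 94 other genes of detoxification, of which 85 were measured. Of the 85, 2 passed higher and 0 lower, which left 83, where 0.57% and 0.288% of all genes passed higher and lower. At an unadjusted limma p under 0.05 there were 9 higher and 5 lower, against 8.59% and 8.88% of all genes. The groups did not overlap in 16.5% of the 85, against 22.6% of all genes. Both genes that passed were regulators that act at antioxidant response elements. Maff, a small Maf protein, had 24.7, 70.9 and 33.3 in ES and 259, 243 and 181 in fPS cells, and rose by 2.11 (SE 0.307, limma adjusted p = 0.0354). Bach1, the repressor of those elements, had 8.21, 17.7 and 8.56 against 65.8, 50.1 and 59.3, and rose by 1.45 (SE 0.222, limma adjusted p = 0.0377). In both genes all fPS arrays were above all ES arrays. The ES values of Bach1 all lay under 36.2, the lowest of the array medians. The calls were lost without single arrays, for Maff without ES replicates 1 and 3 and fPS replicates 1, 2 and 3 (adjusted p = 0.142, 0.106, 0.0628, 0.187 and 0.0897; dropping ES replicate 2 gave 0.0444) and for Bach1 without each (0.154, 0.0699 and 0.104 for ES and 0.0673, 0.179 and 0.0993 for fPS replicates 1, 2 and 3). With pseudocounts of 1 and 64 limma's adjusted p was 0.141 and 0.0557 for Maff, and 0.134 and 0.0557 for Bach1, whose log2 changes were then 2.32 and 0.70, and the ranges over the alternatives were 0.00555 to 0.187 and 0.0112 to 0.182.

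The other regulators were not called. Nfe2l2, the activator NRF2, had 748, 807 and 1250 against 1036, 1043 and 1233, a log2 change of 0.27 with a 95% interval from -0.30 to 0.83, and its inhibitor Keap1 had 157, 123 and 159 against 203, 117 and 86.9. The aryl hydrocarbon receptor Ahr was dim, at 40.8, 19.3 and 10.9 against 25.5, 31.3 and 22.3. Of 14 glutathione and NRF2 target genes 0 passed, while 3 higher and 0 lower had an unadjusted limma p under 0.05, against 8.59% and 8.88% of all genes, and their median log2 change was 0.28. The quinone reductase Nqo1 was bright, at 1576, 2015 and 1615 against 4934, 3901 and 1970, where fPS replicate 3 lay within the ES range. Haem oxygenase Hmox1 had 1354, 1883 and 1392 against 3185, 2262 and 2117, with no overlap. Their log2 changes were 0.96 and 0.70 (limma adjusted p = 0.218 and 0.221). The subunits of glutamate-cysteine ligase, which limits glutathione synthesis, had log2 changes of -0.42 (Gclc) and 0.28 (Gclm).

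P450 reductase, Por, which feeds electrons to the P450 enzymes, had 125, 109 and 127 against 104, 111 and 134, a log2 change of -0.05 with a 95% interval from -0.50 to 0.41. Of 24 other phase 1 genes 0 passed, with 2 higher and 1 lower at an unadjusted limma p under 0.05, against 17.5% of all genes. Carbonyl reductase Cbr1 had 2829, 2618 and 2377 against 1849, 1440 and 643. Its groups did not overlap, and its log2 change of -1.11 (SE 0.362) did not pass (limma adjusted p = 0.192). Epoxide hydrolase Ephx1 had 44.3, 91.9 and 174 against 194, 170 and 400, with a log2 change of 1.24, and the lactonase Pon3 had 33.6, 57.9 and 152 against 92.1, 299 and 177, with 1.14. Both varied widely within the groups and overlapped (limma adjusted p = 0.231 and 0.323). Of 9 transporters 0 passed. Before adjustment (limma p under 0.05) 0 were higher and 2 lower, against 8.59% and 8.88% of all genes. The efflux pump Abcc4 had 387, 261 and 541 against 297, 150 and 156.

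The other conjugating enzymes of the list, sulfotransferases, acetyltransferases and methyltransferases, had mostly negative log2 changes. Of 11 measured 0 passed, and 8 were negative, against 7110 of 14217 over all genes. The median was -0.20. Signals were low in this group: 1 of the 11 had a mean of 100 or more, and 4 were under the array median on all 6 arrays. At an unadjusted limma p under 0.05 there were 0 higher and 2 lower, against 8.59% and 8.88% of all genes. The 2 lower were both methyltransferases, named after their values were seen. Nnmt, of nicotinamide, had 168, 164 and 79.8 against 61.3, 59.4 and 44.4, and Tpmt, of thiopurines, had 477, 464 and 450 against 339, 265 and 341. Their groups did not overlap, with log2 changes of -1.05 and -0.54 (limma adjusted p = 0.134 and 0.245). Of 10 genes of retinoid handling 0 passed. Before adjustment (limma p under 0.05) 2 were higher and 0 lower, again against 8.59% and 8.88% of all genes. These 2 were the carriers of retinoic acid Crabp1 and Crabp2, with log2 changes of 0.69 and 0.93 (limma adjusted p = 0.289 and 0.121).

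Markers of other cells were read on the same arrays. All 18 listed fibroblast genes were measured, and 0 passed the limma test. Before adjustment (limma p under 0.05) 2 were higher and 1 lower, against 8.59% and 8.88% of all genes. The feeders were mouse cells, and how far these rat probe sets take up mouse transcripts was not tested. The summed intensity of the 18 genes ran from 455 to 3276 in ES and from 979 to 2769 in fPS cells, highest on replicate 3 of each group. Leaving out both of those arrays was an alternative chosen after seeing the data. Gstm1 and Cyp2u1 then had log2 changes of 1.58 and -1.50 (limma adjusted p = 0.181 and 0.177). The fibroblast sums on the remaining arrays, 455 and 701 in ES and 1089 and 979 in fPS cells, did not overlap. The part of feeder RNA in the 2 genes was therefore not tested by this. All 14 genes of liver-type and visceral endoderm were measured, and their summed intensity, from 413 to 463 in ES and from 1014 to 1376 in fPS cells, did not overlap. This sum is weighted to Apoa2 and Sox17, the only 2 with a mean of 100 or more. A further 6 were under the array median on all 6 arrays. Of these 14, 8 were higher and 0 lower before adjustment (limma p under 0.05), against 8.59% and 8.88% of all genes. At the adjusted threshold 1 passed higher and 0 lower. This was Apoa2, an apolipoprotein, which had 106, 125 and 82.6 against 281, 658 and 716 and rose (log2 change 2.14, limma adjusted p = 0.0413). Sox17, Gata4, Foxa2, Cubn and Ttr also had all fPS arrays above all ES arrays. With Apoa2, 42.9% of the 14 did not overlap, against 22.6% of all genes. The groups overlapped for Apob, Hnf4a, Gata6, Dab2, Apoa1, Amn, Alb and Afp, of which Apoa1, Amn and Afp had negative log2 changes, and Alb and Afp, which mark the liver, were at or under 32.9 on every array. Whether endoderm cells were present was not tested. Nor was their part in the values of Gstm1, Gstm2, Gsta1, Gsta3, Gstp1, Mgst2, Aldh1l1, Maff and Bach1, all higher on the same arrays. Of 14 pluripotency markers 8 were measured, each with a mean of 100 or more, and 0 passed. Before adjustment (limma p under 0.05) 0 were higher and 2 lower, against 8.59% and 8.88% of all genes. Sox2 had 3427, 3266 and 4618 in ES and 2838, 1856 and 1281 in fPS cells, and Lin28a had 1559, 866 and 1161 against 669, 351 and 424. Neither overlapped (log2 changes -0.97 and -1.30, limma adjusted p = 0.181 and 0.0933), and the other 6 did. The part of this in the values of Cyp2u1, Aldh1b1 and Gstk1, which were lower on the same arrays, was not tested.

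**Figure D5:**
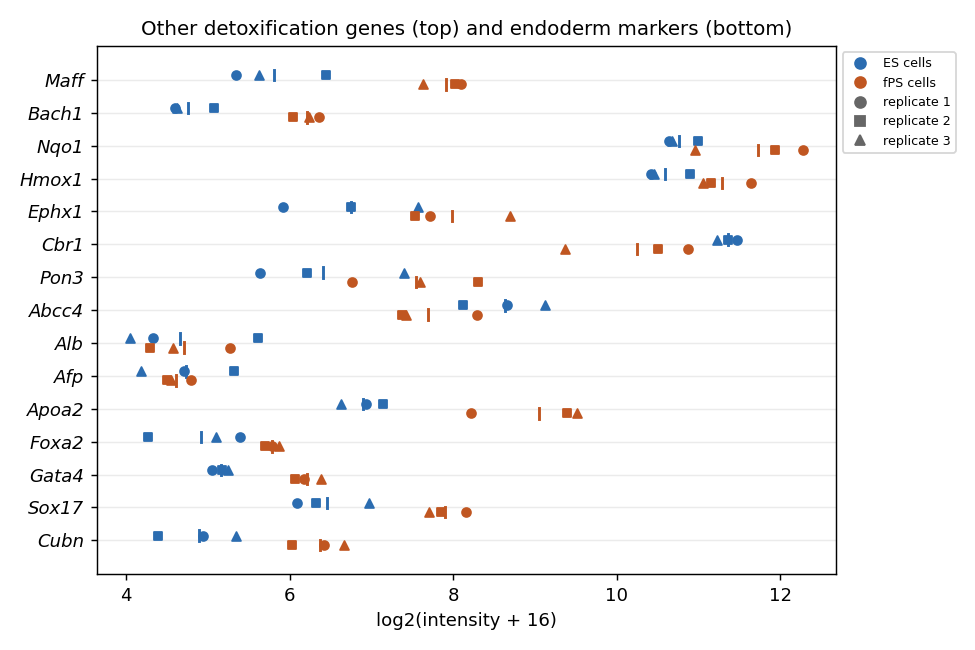
Levels of 8 other detoxification genes and of 7 of the 14 endoderm markers on the 6 arrays, as log2(intensity + 16). Points stand for arrays and bars for group means. The 7 markers were not chosen by a rule. Left out are Apob, Hnf4a, Gata6, Dab2, Apoa1 and Amn, whose groups overlap, and Ttr, whose groups do not. Maff, Bach1, Hmox1 and, among the markers, Apoa2, Foxa2, Gata4, Sox17 and Cubn have all fPS arrays above all ES arrays, Cbr1 has them below, and Alb and Afp overlap near the dim end.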

How the data were processed

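Biotin-labelled cRNA from total RNA of 3 ES and 3 fPS samples was hybridised to Affymetrix arrays, per the labels' protocols. The authors deposited an intensity on a linear scale for each probe set. How they summarised probes and scaled arrays is not given in the sources used here. In all, the table held 31099 rows, of which 57 controls were left out, and 0 other columns of samples. Gene symbols are those of the platform annotation (1 symbol for 20826 probe sets, several for 436, none for 9780); all 105 members were found in the RefSeq table of GRCr8 by gene identifier and 0 symbols differed. Values were taken as log2(intensity + 16) without further scaling or filter and compared with limma 3.58.1 (lmFit, eBayes) in R 4.3.3, adjusted over all 31042 probe sets. The fit was tested on simulated data. Arrays limit the precision by their number, 3 per group.

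The members and lists were chosen with earlier results of these data known. Members were named where they passed the threshold, then up to 5 per family by change among those with a mean of at least 100, and the 3 brightest; 22 were named so, and the others, such as Gsta1, Mgst2, Aldh1l1 and Cyp1a1, were chosen after their values were seen. For the list of 85 genes the rule took those past the threshold and 6 more by change, and Nfe2l2, Keap1, Ahr, Gclc, Gclm and Por were added. Correlations of same-numbered arrays' deviations from their group means were 0.151, 0.0200 and 0.0748. Those of unlike-numbered arrays ran from -0.145 to 0.0545, and each fPS replicate had its highest value with the same-numbered ES array. Because all values were small, replicate numbers were not taken as pairs, but pairing was not excluded. The alternatives were other pseudocounts, quantile normalization, centring, a filter on dim probe sets, other eBayes settings, the replicate block, other choices of probe set and leaving out arrays. Plots used matplotlib 3.10.9 (Python 3.11.15).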

Additional observations from a re-analysis of the deposited data

How the results depend on the processing

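The count of 2 members past the threshold was 0 with pseudocounts of 1 and 64 and with the replicate block, 0 whichever single array was left out, 0 when replicate 3 of each group was dropped (an alternative chosen after seeing the data), and 4 without the dimmest 30% of probe sets and with the trend and robust settings. At an unadjusted limma p under 0.05 it was 15, 18 and 21 in the first 3 of these and between 14 and 22 without single arrays. The count of 2 list genes was 0 with pseudocounts of 1 and 64, 1 with the replicate block, 0 to 1 without single arrays and 0 with both arrays left out. With the replicate block, Gstm1, Cyp2u1 and Bach1 had adjusted p of 0.0565, 0.0692 and 0.0687, and Maff 0.0472. Over all genes 122 were called (81 higher, 41 lower), against 0 and 26 with pseudocounts of 1 and 64, 64 with the replicate block, 203 with centred arrays (96 higher, 107 lower), 414 without the dimmest probe sets, 358 with the trend and robust settings, 0 to 93 without single arrays and 0 without replicate 3 of each group.

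Of the family medians, the Gst median was 0.55 with a pseudocount of 1 and ran from -0.0045 to 0.26 without single arrays, the Ugt median was 0.63 with a pseudocount of 1, and the Cyp median ran from -0.14 to 0.061 without single arrays. The Aldh median ran from -0.13 to 0.15 without single arrays. Of 40 genes followed, 39 kept their sign in every alternative that gave a value, and Mgst3 had 0.061 after quantile normalization and between -0.13 and 0.021 without single arrays. Leaving out 1 array moved the log2 change by over 1.5 times in 21 of the 40, none of which passed the test. Low signals limit most Cyp and Ugt values.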
